A study of Mus musculus with 10 samples.

Results

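Genes of all families were compared between mouse hair follicle stem cells labelled Sox9 conditional knockout (cKO) and their controls, in 2 pairs of libraries that share a replicate number. A gene was taken when both pairs differed by 1.5-fold or more with the same sign. Of 37298 genes listed, 14455 averaged 1 FPKM or more (sequenced fragments divided by transcript length and by the library's mapped total) and were compared, and 269 of these (1.86%) met the rule. They comprised 95 genes that were higher in the libraries labelled cKO, 0.657% of those compared, and 174 that were lower, 1.2%. The same FPKM values chose these genes, so their differences are a description and carry no test.

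SOX9 is an HMG-box transcription factor that the stem cells of the hair follicle bulge (HFSCs) express and that their maintenance requires. HFSCs rest for long periods and exchange secreted signals, matrix proteins and receptors with the cells around them. In cartilage, SOX9 is best known for switching on matrix genes.

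RNA was sequenced from HFSCs of resting (telogen) back skin, sorted for high integrin α6, for CD34 and for a YFP reporter, and against the antigen that the labels spell ScaI. All 4 libraries have the strain background given as C57BL6, mixed, and all mice received RU486, the drug that switches on CrePGR, a Cre fused to a progesterone receptor. Replicate 1 of each genotype was male, treated on days 48 to 61 and collected at day 75, and replicate 2 was female, treated on days 53 to 66 and collected at day 80. The genotype field reads Sox9 Knock out for the cKO; the controls are titled Het but carry wild type in that field. The sources used here name neither the promoter that drives CrePGR nor the number of mice in a library. A library may thus be 1 mouse or a pool. Spread between libraries of one genotype mixes sex, age, animal and technical differences, which cannot be told apart. Sex and age change together between the replicates.

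Sox9 itself was read first. With the library labelled cKO given first, it stood at 71.3 against 82.7 FPKM in replicate 1 and 80.5 against 46.5 in replicate 2, so its FPKM was not lower in both libraries labelled cKO. The value covers the whole gene and says nothing of a deleted part; every direction below follows the labels. All 11 HFSC markers examined were expressed, among them Krt15 at 8703 to 10894 FPKM, and of these Lhx2 alone met the 1.5-fold rule. Cd34 (log2 differences -0.50 and -0.55), Nfatc1 (-0.70 and -0.46), Tbx1 (-1.07 and -0.36) and Lgr5 (-0.32 and -0.20) were also lower in both pairs. Itga6 was higher in both (0.05 and 0.19), and Krt5, Krt14, Krt15, Tcf7l1 and Sox9 differed in sign between the pairs. The mean log2 difference of the pairs had a median of -0.26 over the 11 markers. The 7 endothelial and 7 adipocyte markers were all under 1 FPKM. Of 7 fibroblast markers 5 were under 1 FPKM, and the list summed to 22.5 against 16.9 FPKM in replicate 1 and 22.4 against 8.64 in replicate 2, labelled cKO first. The replicate 2 library labelled cKO stood apart in the 7 muscle markers, which summed to 50.9 FPKM there and to between 9.97 and 12.1 in the other libraries; Acta2 was at 35.8 FPKM against 2.02 in its control, and Des, listed at 0 in the other libraries, at 5.01. The part of these markers in the differences below was not tested. Of the 14 genes of the response to tissue dissociation 0 met the rule, but their sum moved with genotype in opposite directions in the pairs, at 15640 against 10790 FPKM in replicate 1 and 6377 against 7246 in replicate 2. Within replicate 1 the library labelled cKO was thus the higher one, with log2 differences of 0.85 for Atf3, 0.80 for Ier3 and 0.75 for Junb, and the part of this response in the replicate 1 differences was not tested.

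Within replicate 1 alone, 328 genes (2.27%) were 1.5-fold higher and 646 (4.47%) lower; within replicate 2 alone, 829 (5.74%) were higher and 872 (6.03%) lower. Another 93 genes (0.643%) passed 1.5-fold in opposite directions in the pairs. Among the 95 higher genes 68 had both libraries labelled cKO above both controls, and among the 174 lower genes 131 had both below. Over all genes compared such complete separation was found for 5.47% and 8.42%. The rule chose its genes on these same values and favours such separation, so this contrast is no support for them. A difference of at least 2-fold in both pairs was met by 28 higher genes (0.194% of all) and 40 lower genes (0.277%). The mean log2 difference of the pairs had a median of 1.02 in the higher genes, -0.90 in the lower genes and -0.01 over all genes. All log2 differences given here are of FPKM + 1, so the change of a gene with low FPKM is understated.

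A linear model with genotype alone (limma, Benjamini-Hochberg adjustment) called 0 of the 14455 genes (0.0%), with 93 at an unadjusted p under 0.05. With the replicate number as a block it called 41 (0.284%), 15 higher (0.104%) and 26 lower (0.18%), and all 41 were among the 269. That fit uses the same values as the rule, so it adds no independent evidence.

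**Figure D1:**
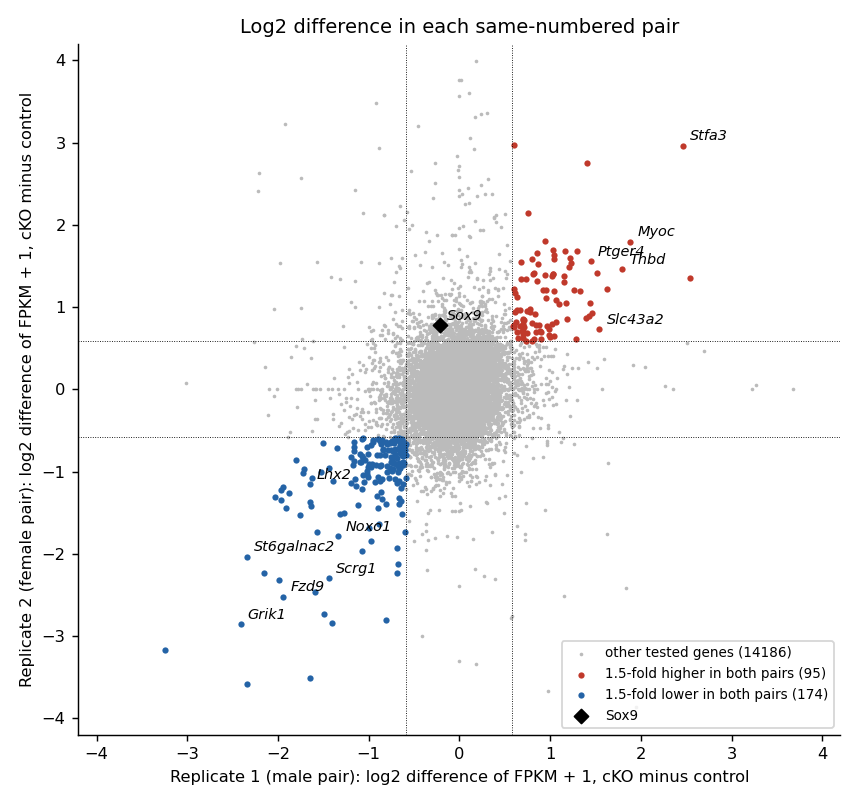
Log2 difference of FPKM + 1, labelled cKO minus control, in replicate 1 (horizontal axis) and replicate 2 (vertical axis) for the genes compared. Dotted lines mark the 1.5-fold threshold; the 95 higher genes lie at upper right, the 174 lower genes at lower left, and Sox9 between them. The axes leave out 1 gene.

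The threshold cut through a continuous range. Just inside it were Klhl29 (log2 differences 0.59 and 0.77 in replicates 1 and 2) and Vegfa (0.74 and 0.59) among the higher genes, and Cyp46a1 (-0.66 and -0.59) and Krtap17-1 (-0.59 and -1.07) among the lower. Just outside were Rps3a (0.56 and 0.59), Prrg1 (0.75 and 0.57), Psd (-0.58 and -0.76) and Upp1 (-0.58 and -1.21). The smaller of a gene's log2 differences lay below 0.65 in 20 of the higher and 45 of the lower genes.

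Genes were sorted into 7 functional classes by the family their symbols belong to. Metabolic enzymes gave 3 higher and 17 lower genes of 754 compared, or 0.398% and 2.26%. Transport proteins gave 2 and 5 of 443, or 0.451% and 1.13%, and transcription factors 4 and 11 of 795, or 0.503% and 1.38%. Membrane receptors gave 8 higher and 12 lower genes of 286, or 2.80% and 4.196%. Secreted and matrix proteins gave the most, with 20 higher and 24 lower of 326, or 6.13% and 7.36%. These shares stand beside 0.657% and 1.2% for all genes. Members shifted little as whole classes: the median log2 difference was -0.01 in metabolism, -0.05 in transport, -0.08 in transcription factors, -0.09 in receptors and -0.04 in secreted and matrix proteins.

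**Figure D2:**
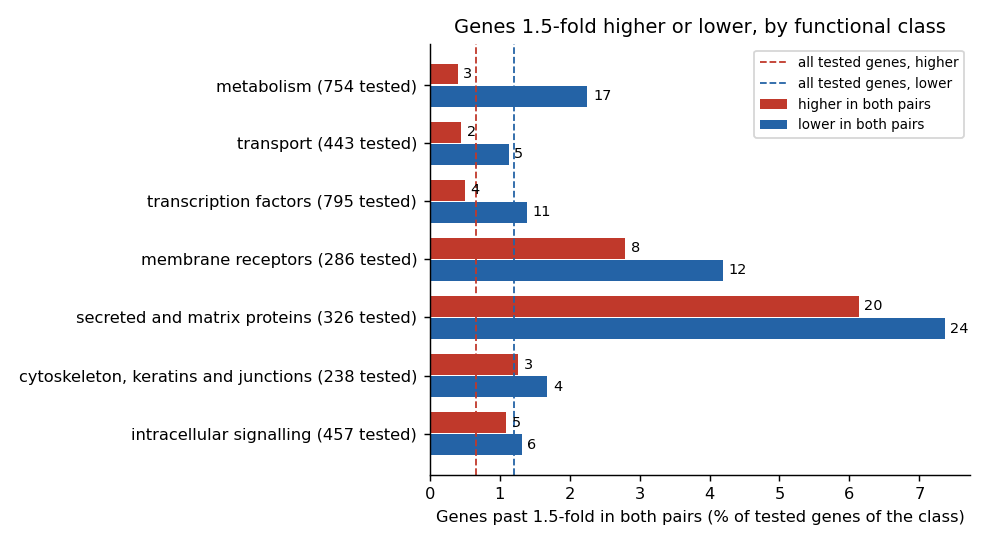
Share of each functional class (percent of its genes compared) that was 1.5-fold higher or lower in both pairs, with the number of genes at each bar. Dashed lines give the shares over all genes; bars for receptors and for secreted and matrix proteins extend past both lines.

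In the text below, values are FPKM of the library labelled cKO against its control. In bulk RNA such as this, fewer cells of a type and less RNA per cell cannot be told apart.

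Of the 8 higher membrane receptors, 3 were among the largest differences of all higher genes. Thbd (thrombomodulin, which turns thrombin toward activating protein C; ENSMUSG00000074743; mm9 chromosome 2, 148230206 to 148233924) stood at 11.97 against 2.75 FPKM in replicate 1 and 7.43 against 2.07 in replicate 2. Both libraries labelled cKO were well above both controls, with log2 differences of 1.79 and 1.46. Ptger4, which binds prostaglandin E2 (receptor EP4), stood at 11.3 against 3.51 FPKM in replicate 1 and 14.3 against 4.21 in replicate 2, again without overlap (log2 differences 1.45 and 1.56). Ptgs2, the inducible cyclooxygenase that makes the prostaglandin precursor, was also higher in each pair, at 36.2 against 14.2 FPKM in replicate 1 and 6.05 against 3.60 in replicate 2. Its libraries overlapped by genotype, since the replicate 1 control lay above the replicate 2 library labelled cKO.

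Accessory proteins of peptide receptors differed in opposite directions. Ramp1, which with the calcitonin receptor-like receptor forms the CGRP receptor, stood at 12.1 against 3.58 FPKM in replicate 1 and 22.5 against 7.76 in replicate 2 (ENSMUSG00000034353; mm9 chromosome 1, 93076398 to 93121773). Ramp2, which makes the same receptor respond to adrenomedullin, stood at 2.41 against 4.23 FPKM in replicate 1 and 3.16 against 6.70 in replicate 2. Neither gene's genotypes overlapped; the log2 differences were 1.52 and 1.42 for Ramp1 and -0.62 and -0.89 for Ramp2. Adm, the adrenomedullin precursor, was at 3.50 against 1.19 FPKM in replicate 1 and 2.96 against 0.732 in replicate 2, higher in both. C-type natriuretic peptide and its receptor also differed in opposite directions. Nppc, the peptide's precursor, stood at 6.70 against 1.85 FPKM in replicate 1 and 3.85 against 1.61 in replicate 2, and Npr2, its guanylyl cyclase receptor, at 3.38 against 5.70 FPKM in replicate 1 and 2.61 against 4.66 in replicate 2. Neither gene's genotypes overlapped, and all values were below 7 FPKM.

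Among growth factor and adhesion receptors, Fgfr2, the receptor tyrosine kinase for FGF7 and FGF10 in skin epithelium, was the most abundant receptor of the set at 214 against 133 FPKM in replicate 1 and 145 against 88.8 in replicate 2. Fgfbp1, a secreted protein that releases FGFs from heparan sulfate, was higher with it, at 104 against 53.2 FPKM in replicate 1 and 268 against 102 in replicate 2. Its genotypes separated narrowly, the replicate 1 library labelled cKO lying just above the replicate 2 control. Adra2a, the α2A adrenergic receptor, was at 12.2 against 6.43 FPKM in replicate 1 and 32.6 against 21.1 in replicate 2, with overlap between genotypes, and Gprc5a, an orphan receptor inducible by retinoic acid, was low in all libraries at 1.25 against 0.406 and 2.25 against 0.279 FPKM. The paralogous adhesion proteins Flrt3 and Flrt2 went opposite ways. Flrt3 stood at 48.7 against 25.8 FPKM in replicate 1 and 20.1 against 11.96 in replicate 2 and Flrt2 at 18.3 against 42.1 FPKM in replicate 1 and 10.2 against 16.4 in replicate 2; in both, replicate 2 was lower than replicate 1 in either genotype, so that the 4 libraries overlapped. Clec3b was counted here by its symbol, though it encodes tetranectin, a secreted plasminogen-binding protein; it was at 48.9 against 24.8 FPKM in replicate 1 and 22.4 against 9.13 in replicate 2.

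The receptors that were lower included 3 frizzleds, the receptors of WNT signals. How many frizzleds were compared was not counted, so no share is given for that family. They were counted among G protein-coupled receptors and subunits. That group gave 6 lower (6.74%) and 4 higher (4.49%) of 89, beside 1.2% and 0.657% of all genes. Fzd9 stood at 2.18 against 11.2 FPKM in replicate 1 and 1.53 against 13.5 in replicate 2, the largest difference of any receptor (-1.94 and -2.52). Fzd7 was at 50.3 against 89.9 FPKM in replicate 1 and 32.6 against 57.4 in replicate 2 and Fzd2 at 63.0 against 114 FPKM in replicate 1 and 66.4 against 112 in replicate 2, each about as far apart in the male as in the female pair. Paqr6, of the membrane progestin receptor family, was at 5.89 against 16.1 FPKM in replicate 1 and 18.0 against 53.1 in replicate 2. Its genotypes overlapped because replicate 2 was above replicate 1 in both genotypes. Fzd9 and Paqr6 were each more than 2-fold lower in both pairs. Itgb8, the integrin subunit that activates latent TGF-β, stood at 5.70 against 9.95 FPKM in replicate 1 and 1.85 against 3.98 in replicate 2, and Gpc6, a glypican carrying heparan sulfate, at 1.79 against 6.08 FPKM in replicate 1 and 1.25 against 2.67 in replicate 2. Ldlrad3, a receptor of the LDL receptor family, had log2 differences of -0.63 and -0.73. Ednra, the endothelin A receptor, had -0.61 and -0.70, and the sorting receptor Sorl1 -0.71 and -0.60.

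Transcription factors gave fewer genes. Lhx2, the LIM homeobox factor that maintains the bulge, had the largest difference, at 114 against 359 FPKM in replicate 1 and 87.1 against 195 in replicate 2; both controls lay above both libraries labelled cKO (log2 differences -1.65 and -1.16). The other homeobox genes of the set had smaller differences. Dlx3, a homeobox factor of hair differentiation (ENSMUSG00000001510; mm9 chromosome 11, 94981402 to 94986610), stood at 9.87 against 16.3 FPKM in replicate 1 and 6.44 against 13.2 in replicate 2, and Hoxa3 at 3.45 against 5.77 and 2.52 against 5.53 FPKM. Homeobox genes thus gave 3 lower (4.48%) and 0 higher of 67, beside 1.2% and 0.657% of all genes, with a median log2 difference over the 67 of -0.22. Of the 3, Hoxa3 had no current symbol match and lies in a deposited locus that 11 listed genes share.

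Id4, an inhibitor of basic helix-loop-helix factors that BMP signals induce in many tissues, stood at 29.7 against 46.6 FPKM in replicate 1 and 19.8 against 35.0 in replicate 2. Tcfap2b, an AP-2 factor, was at 49.5 against 90.2 FPKM in replicate 1 and 20.9 against 32.4 in replicate 2; here replicate 1 was higher than replicate 2 in either genotype and the libraries overlapped. Irf7, the interferon regulatory factor, was at 4.67 against 7.99 and 7.09 against 14.0 FPKM, and Nfatc4, a calcineurin-regulated factor, at 1.09 against 3.46 and 1.04 against 2.51 FPKM. Arid3b and Zfp462 were low in all libraries, between 0.320 and 3.41 FPKM. Zfp365 and Atf7ip were counted by their symbols, and the latter encodes a chromatin cofactor and not a DNA-binding factor. Their log2 differences were -0.69 and -0.83 for Zfp365 and -0.68 and -0.60 for Atf7ip. The Atf7ip entry, with a deposited locus of 3024 bases, had no current symbol match.

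The 4 transcription factors that were higher were Epas1, Cebpd, Sox4 and Mesp2. Epas1 (HIF-2α, a factor stabilised at low oxygen; ENSMUSG00000024140; mm9 chromosome 17, 87153246 to 87232750) stood at 12.2 against 4.95 FPKM in replicate 1 and 5.95 against 1.68 in replicate 2. Its level also differed between replicates, and the replicate 2 library labelled cKO was only just above the replicate 1 control. Cebpd, a factor of the acute phase response, was the most abundant of them at 88.2 against 51.0 FPKM in replicate 1 and 155 against 78.7 in replicate 2. Sox4, another member of the SOX family, stood at 4.39 against 2.15 FPKM in replicate 1 and 5.09 against 2.18 in replicate 2, with controls almost equal to each other. Mesp2, known from somite formation, was at 7.36 against 4.36 FPKM in replicate 1 and 11.9 against 7.35 in replicate 2; the replicate 1 library labelled cKO and the replicate 2 control were level.

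**Figure D3:**
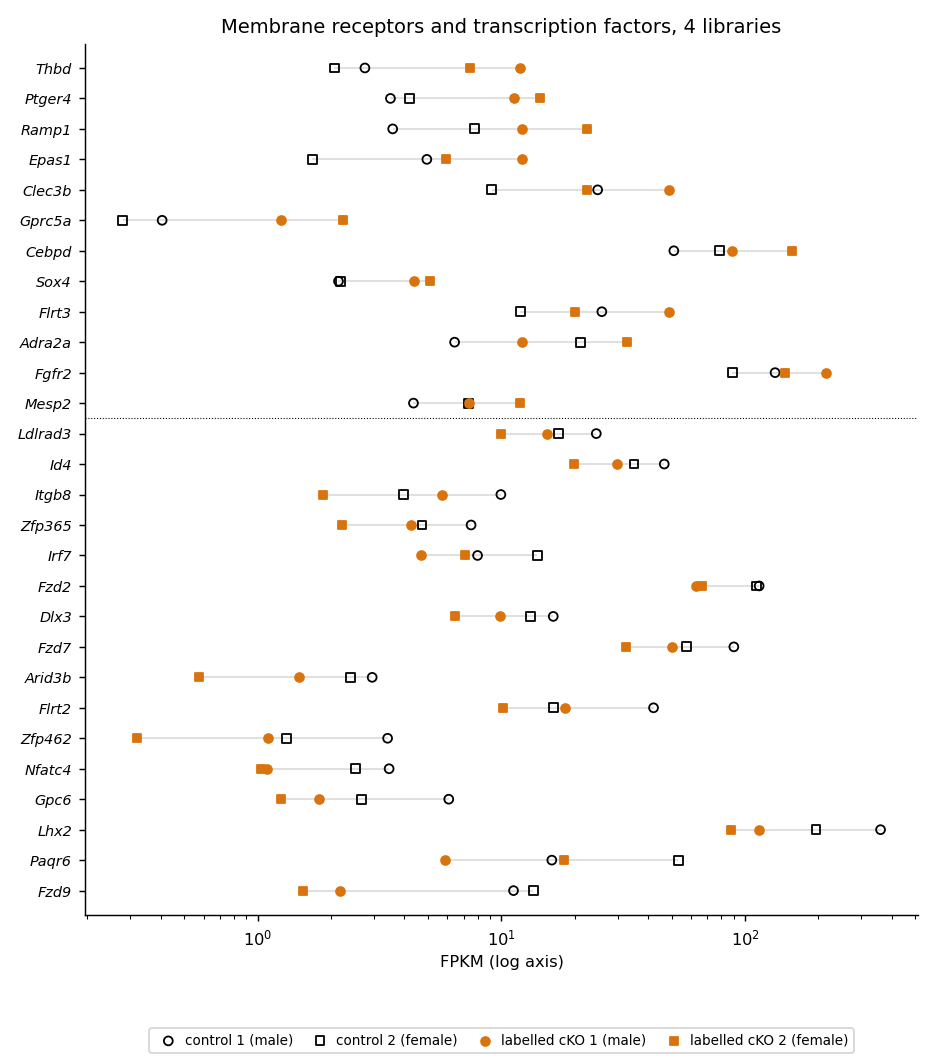
FPKM on a log axis of the named membrane receptors and transcription factors in each of the 4 libraries; circles are replicate 1 (male), squares replicate 2 (female), filled symbols labelled cKO and open symbols control. Genes above the dotted line were higher and genes below it lower in both pairs; Fzd9, Lhx2, Thbd and Ptger4 show both genotypes apart, and Paqr6, Flrt2 and Clec3b overlap.

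Metabolic enzymes were mostly on the lower side. Of the enzymes that build or edit glycans, 4 of 113 were lower (3.54%) and 0 higher, beside 1.2% and 0.657% of all genes. St6galnac2, a sialyltransferase of mucin-type O-glycans, stood at 3.15 against 20.1 FPKM in replicate 1 and 2.08 against 11.6 in replicate 2, with log2 differences of -2.34 and -2.03. Sulf2, an extracellular sulfatase that trims 6-O-sulfate groups from heparan sulfate, was at 7.09 against 24.4 FPKM in replicate 1 and 8.28 against 23.1 in replicate 2, the controls being close to each other. Both genes showed no overlap between genotypes. St6galnac6, a further sialyltransferase, had log2 differences of -0.71 and -0.79, and Extl3, a glycosyltransferase that starts heparan sulfate chains, -0.64 and -0.62.

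Redox and detoxification enzymes went both ways. Noxo1, the organiser subunit of NADPH oxidase 1, stood at 2.19 against 7.07 FPKM in replicate 1 and 3.76 against 15.4 in replicate 2, and Msrb3, which repairs oxidised methionine, at 3.29 against 15.5 FPKM in replicate 1 and 2.45 against 6.88 in replicate 2. Both were more than 2-fold lower in each pair. Gstt1, a glutathione transferase, was at 4.93 against 8.97 and 7.90 against 14.7 FPKM. Cbr2, a carbonyl reductase (ENSMUSG00000025150; mm9 chromosome 11, 120590802 to 120593428), was instead higher and was the most abundant metabolic gene of the set, at 303 against 173 FPKM in replicate 1 and 422 against 241 in replicate 2. Its log2 differences of 0.80 and 0.81 were nearly the same in both pairs.

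Cytochrome P450 genes gave 3 lower (12.5%) and 0 higher of 24, beside 1.2% and 0.657% of all genes, with a median log2 difference over the 24 of -0.03. Cyp2d22 stood at 5.49 against 11.1 FPKM in replicate 1 and 4.58 against 12.7 in replicate 2. Cyp26b1, which breaks down retinoic acid, was the most abundant of these, at 29.8 against 61.4 FPKM in replicate 1 and 21.3 against 35.3 in replicate 2, and Cyp46a1, the cholesterol 24-hydroxylase, was at 1.39 against 2.79 and 1.29 against 2.43 FPKM. All libraries labelled cKO lay below all controls in each of the 3 genes.

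Lipid, sterol and eicosanoid enzymes gave 2 higher and 2 lower genes of 244 (0.820% each way), Ptgs2 above among them. Nucleotide and NAD enzymes gave 0 higher and 2 lower (2.41%) of 83, beside 0.657% and 1.2% of all genes. Chka, the choline kinase of the first step of phosphatidylcholine synthesis, stood at 20.2 against 11.7 FPKM in replicate 1 and 13.9 against 4.86 in replicate 2, and Lpcat4, a lysophospholipid acyltransferase, at 4.84 against 8.004 and 2.90 against 5.12 FPKM. Abhd12b, of the α/β hydrolase family, was at 20.6 against 35.0 FPKM in replicate 1 and 20.9 against 39.0 in replicate 2; the libraries within each genotype were close together. Pde9a, which breaks down cyclic GMP, was at 0.591 against 2.34 and 1.34 against 4.44 FPKM, and Gda, guanine deaminase, at 4.89 against 8.09 and 3.21 against 6.39 FPKM. Eno2 (an enolase), Ppp1r3b (a glycogen-targeting subunit of a phosphatase) and Hdc (the histamine-forming decarboxylase) were low in all libraries, between 0.219 and 5.29 FPKM, with log2 differences between -1.08 and -0.59.

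Transport proteins numbered 7. Grik1, a kainate-type glutamate receptor channel (ENSMUSG00000022935; mm9 chromosome 16, 87896440 to 88289947), had the largest difference of the 4 classes, at 0.667 against 7.87 FPKM in replicate 1 and 0.692 against 11.3 in replicate 2 (log2 differences -2.41 and -2.86). Its libraries labelled cKO were both under 1 FPKM. Slc2a1, the glucose carrier GLUT1, was higher, at 121 against 61.5 FPKM in replicate 1 and 78.2 against 45.6 in replicate 2, as was Slc43a2, a carrier of large neutral amino acids, at 15.5 against 4.65 FPKM in replicate 1 and 6.88 against 3.76 in replicate 2. The Slc43a2 difference was larger in the male than in the female pair (1.54 and 0.73). These were the 2 higher solute carriers (0.930%) of 215 compared, with 1 lower (0.465%), beside 0.657% and 1.2% of all genes.

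Atp13a2, a lysosomal ATPase that exports polyamines, was lower at 31.2 against 52.3 FPKM in replicate 1 and 47.2 against 80.1 in replicate 2. Its log2 differences in the pairs were close, -0.73 and -0.75, and its genotypes did not overlap. Abca4, a lipid flippase known from the retina, was at 0.742 against 2.68 and 0.620 against 1.47 FPKM. Sv2a, a synaptic vesicle protein counted here as a carrier of its superfamily, was at 0.537 against 1.34 and 0.557 against 1.65 FPKM. Azin1, which raises polyamine levels by binding antizyme and belongs to none of the classes, was higher at 95.04 against 51.4 FPKM in replicate 1 and 38.3 against 21.8 in replicate 2.

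**Figure D4:**
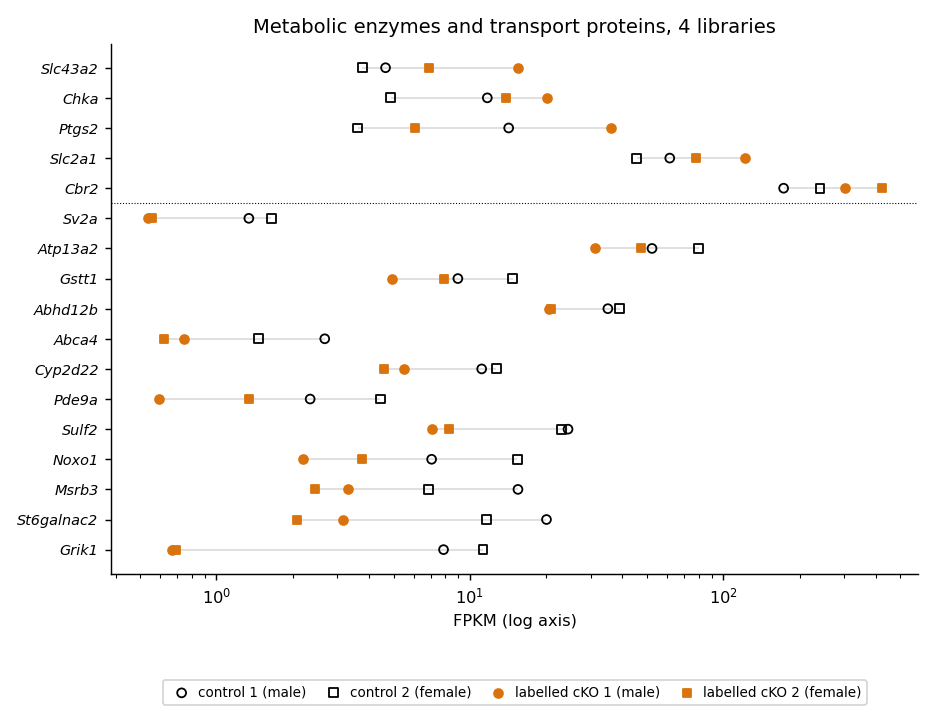
FPKM on a log axis of the named metabolic enzymes and transport proteins in each of the 4 libraries, drawn as for the receptors. The 5 higher genes are above the dotted line; Grik1 and St6galnac2 have the widest gaps between genotypes, and Ptgs2 overlaps.

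Secreted and matrix proteins formed the class with the highest share. Stfa3, a stefin that inhibits cysteine proteases, stood at 44.0 against 7.18 FPKM in replicate 1 and 138 against 16.9 in replicate 2, and Myoc, the secreted glycoprotein myocilin, at 134 against 35.7 FPKM in replicate 1 and 225 against 64.2 in replicate 2. By the smaller of a gene's pair differences these were the largest of all higher genes, 2.46 and 2.97 for Stfa3 and 1.88 and 1.80 for Myoc. Ccl27a, the skin chemokine that draws T cells, was very abundant at 1085 against 461 FPKM in replicate 1 and 2289.5 against 788 in replicate 2. Ccl27b, Gm2506 and Gm13306 gave nearly the same values and are near-identical copies, so reads of these genes cannot be assigned to one of them with certainty. The same limit holds for Stfa3, Sprr2a2 and Trim12a, which have close paralogs.

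Other chemokines were low. Cxcl10 stood at 1.89 against 0.403 and 3.89 against 0.631 FPKM, Ccl2 at 3.27 against 1.41 and 3.07 against 0.524 FPKM and Ccl7 at 4.32 against 1.69 and 1.35 against 0.493 FPKM. Matrix-related genes were found on both sides. Higher were Adamts1, a protease of the matrix proteoglycans, at 61.1 against 19.2 FPKM in replicate 1 and 16.2 against 6.41 in replicate 2, and Thbs2, a thrombospondin, at 34.4 against 12.1 FPKM in replicate 1 and 16.1 against 7.30 in replicate 2. Tnc, tenascin C, was at 27.7 against 14.7 and 17.3 against 5.35 FPKM, and the guidance cue Slit3 at 33.6 against 14.0 and 13.1 against 4.02 FPKM. Replicate 1 exceeded replicate 2 in both genotypes for Adamts1, Slit3 and Tnc. The part of the fibroblast marker levels given above in these differences was not tested. Col1a2, a fibroblast collagen, was at 21.9 against 14.8 FPKM in replicate 1 and 13.8 against 7.40 in replicate 2. Col1a1, a further fibroblast collagen, was at 0.336 against 1.80 FPKM in replicate 1 and 6.99 against 0.802 in replicate 2.

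Among the secreted growth factors, Wnt11 was at 4.27 against 1.603 and 3.58 against 1.63 FPKM, Vegfa at 10.6 against 5.97 and 7.43 against 4.60 FPKM, and Pthlh, parathyroid hormone-like hormone, at 9.48 against 5.78 and 5.03 against 2.43 FPKM.

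On the lower side, Wfdc3, a WAP-domain protease inhibitor, stood at 21.7 against 75.8 FPKM in replicate 1 and 31.7 against 93.4 in replicate 2, and Serpinb11, a serpin, at 13.4 against 43.5 FPKM in replicate 1 and 17.1 against 37.0 in replicate 2. Mmp11, stromelysin 3, was at 2.88 against 11.03 and 1.603 against 5.94 FPKM, and Cck, the peptide hormone precursor cholecystokinin, at 23.1 against 57.4 FPKM in replicate 1 and 28.7 against 83.1 in replicate 2. None of these overlapped between genotypes. Abundant matrix genes had smaller differences. Sparc (osteonectin) was at 169.6 against 288 FPKM in replicate 1 and 134 against 260.1 in replicate 2, Ecm1 at 436 against 695 FPKM in replicate 1 and 287 against 476 in replicate 2 and Ctgf, connective tissue growth factor, at 517 against 901 FPKM in replicate 1 and 315 against 499.9 in replicate 2. The Ctgf replicate 1 library labelled cKO was above the replicate 2 control, whereas Sparc had no overlap. Timp2, the metalloproteinase inhibitor, was at 126 against 254 FPKM in replicate 1 and 95.7 against 185 in replicate 2, and Sostdc1, which blocks BMP and WNT ligands outside the cell, at 78.1 against 163 FPKM in replicate 1 and 50.7 against 112 in replicate 2. Inhbb, Bdnf, Gdf10 and Dlk1 were also lower, all between 0.264 and 10.5 FPKM.

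Intracellular signalling genes included feedback inhibitors on the higher side. Errfi1, which inhibits the EGF receptor, stood at 112 against 47.5 FPKM in replicate 1 and 99.1 against 31.9 in replicate 2, and Dusp6, a phosphatase of ERK kinases (ENSMUSG00000019960; mm9 chromosome 10, 98725864 to 98730122), at 74.2 against 30.2 FPKM in replicate 1 and 39.7 against 16.6 in replicate 2. Rasd1, Gadd45a and Rhoc had log2 differences between 0.61 and 1.17. Lower were Wwp2, a ubiquitin ligase whose gene hosts Mir140, at 36.2 against 135 FPKM in replicate 1 and 34.2 against 83.0 in replicate 2, and Traf1, Nek8, Sh3tc2, Gnb1l and Ppp1r3b, with log2 differences between -1.14 and -0.59. The class as a whole gave 5 higher and 6 lower of 457, or 1.09% and 1.31%.

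Structural genes gave 3 higher (1.26%) and 4 lower (1.68%) of 238, beside 0.657% and 1.2% of all genes. The small proline-rich proteins Sprr1b and Sprr2a2, which build the cornified envelope, were higher, at 10.2 against 5.43 and 9.87 against 3.11 FPKM and at 2.19 against 0.428 and 20.7 against 5.74 FPKM. Lce6a, a late cornified envelope protein, was lower, at 3.13 against 6.97 FPKM in replicate 1 and 18.5 against 29.0 in replicate 2; its genotypes overlapped because replicate 2 was above replicate 1 in both genotypes. Krt24, a keratin, was at 623 against 408 FPKM in replicate 1 and 760.0 against 395 in replicate 2. S100a4, a calcium-binding protein of motile cells, was the most abundant lower gene, at 310.1 against 1168 FPKM in replicate 1 and 1051 against 2862 in replicate 2; its log2 differences were -1.91 and -1.44. S100a3, of the same gene cluster on chromosome 3, was at 4.23 against 9.60 and 5.66 against 12.3 FPKM. None of the 7 epidermal markers met the rule; their sums were 2796 against 2952 FPKM in replicate 1 and 5189 against 8082 in replicate 2.

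The binding of SOX9 at these genes came from ChIP-seq, a measurement the rule did not use, in untreated CD-1 females of days 52 to 60. A gene was counted when each of the 2 HFSC lists had a SOX9 peak no more than 10 kb from the deposited locus. This held for 16 of 95 higher genes, or 16.8% (exact 95% binomial interval 9.94% to 25.9%), and for 50 of 174 lower genes, or 28.7% (22.1% to 36.1%). Over all 14455 genes it held for 17.5%. Many deposited loci are merged spans that several genes share: 44 of the 95, 77 of the 174 and 42.4% of all genes compared. With only loci of 1 gene, and small RNAs left out, the shares were 5 of 49 (10.2%) for the higher genes, 15 of 93 (16.1%, interval 9.32% to 25.2%) for the lower genes, and 13.04% over 8251 genes. The lower genes' interval then included the share of all genes. These intervals cover counting error only, and this restriction was chosen after the data were seen.

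With HFSC list 1 alone, 55.7% of lower and 44.2% of higher genes had a peak, beside 34.9% of all genes. On loci of 1 gene the shares were 44.1%, 32.7% and 28.1%. With HFSC list 2 alone, 31.6% of lower and 18.9% of higher genes had a peak, beside 24.2% of all genes. On loci of 1 gene these shares were 18.3%, 14.3% and 19.4%, so that both sets lay below all genes in list 2. In the list of the interfollicular epidermis (IFE), both sets of genes lay below all genes, at 31.0%, 27.4% and 36.3%, or at 20.4%, 14.3% and 29.3% on loci of 1 gene. Peaks in both HFSC lists with none in the IFE list were near 24 of 174 lower genes (13.8%, interval 9.04% to 19.8%), 5 of 95 higher genes (5.26%, 1.73% to 11.9%) and 3.04% of all genes. On loci of 1 gene the lower genes' share was 9.68% (4.52% to 17.6%) beside 2.44% of all genes. This last combination was also chosen after the data were seen.

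**Figure D5:**
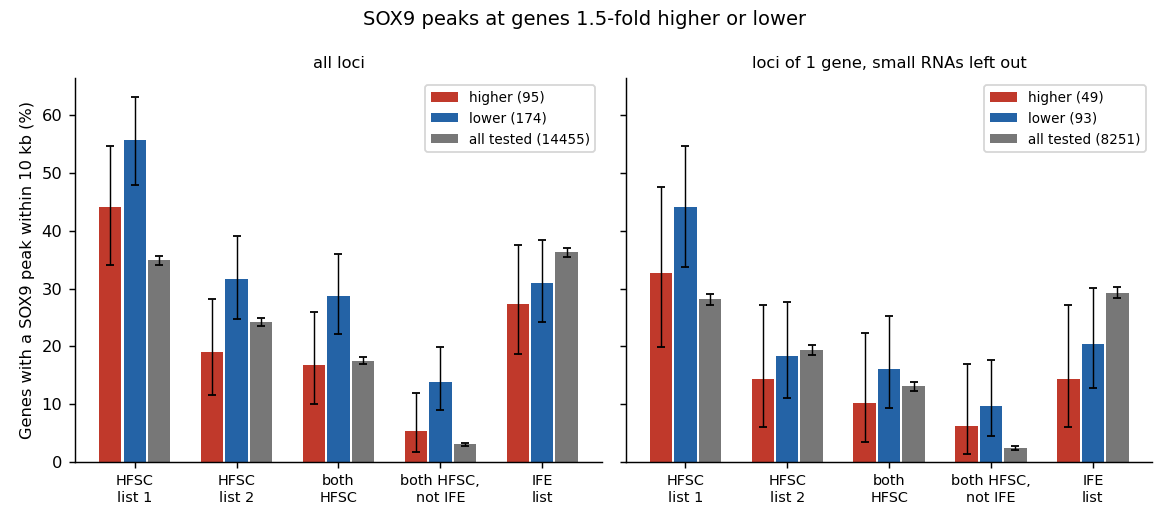
Percent of genes with a SOX9 peak within 10 kb, for higher, lower and all genes compared, by peak list or combination of lists, over all loci (left) and over loci of 1 gene without small RNAs (right); bars start at 0 and error bars are exact 95% binomial intervals. The lower genes exceed all genes in HFSC list 1 and in peaks of both HFSC lists without an IFE peak, and the intervals of the higher genes are wide. In HFSC list 2 the lower genes exceed all genes over all loci but not on loci of 1 gene.

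At single members, peaks of both HFSC lists lay across the edge of the deposited locus of Fzd2 (mm9 chromosome 11, 102465375 to 102465985 in list 1), of Sema3e (chromosome 5, 14025006 to 14025849) and of Cbr2 (chromosome 11, 120593121 to 120593861), with no IFE peak within 10 kb of these genes. Sema3e, a semaphorin guidance cue, was lower at 33.7 against 57.1 FPKM in replicate 1 and 12.3 against 25.5 in replicate 2. The deposited locus of Sema3e is shared by 2 genes, as is that of Lhx2. Lhx2 had peaks inside this shared locus, among them chromosome 2, 38224006 to 38224854 in list 1. An IFE peak, at 38224291 to 38224600, lay inside that one. Itgb8 had a peak of each HFSC list inside its locus, at chromosome 12, 120466236 to 120466884 in list 1, with no IFE peak within 10 kb. Fzd7 and Fzd9 had no peak of both HFSC lists within 10 kb, nor had Thbd, Ptger4, Ramp1, Stfa3 or Myoc.

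The 250 bases upstream of the annotated start were read for 4 members, from RefSeq sequences of the build GRCm38.p6: Cbr2 and Sema3e, whose locus edges carried SOX9 peaks with no IFE peak, and Fzd7 and Myoc, lower and higher genes that had none of both HFSC lists. Capitals mark the core ACAAAG, a SOX- and TCF-type motif, on either strand; it reads CTTTGT where it lies on the other strand. Coordinates are chr11:120732022-120732271 (minus strand), chr5:14025026-14025275 (plus), chr1:59481897-59482146 (plus) and chr1:162638900-162639149 (plus), and each is written 5′ to 3′.
Cbr2: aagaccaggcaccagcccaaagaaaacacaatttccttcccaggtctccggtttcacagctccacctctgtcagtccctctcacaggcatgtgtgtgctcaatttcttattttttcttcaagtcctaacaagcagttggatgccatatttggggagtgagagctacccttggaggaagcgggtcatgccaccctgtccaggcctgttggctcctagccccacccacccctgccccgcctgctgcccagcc
Sema3e: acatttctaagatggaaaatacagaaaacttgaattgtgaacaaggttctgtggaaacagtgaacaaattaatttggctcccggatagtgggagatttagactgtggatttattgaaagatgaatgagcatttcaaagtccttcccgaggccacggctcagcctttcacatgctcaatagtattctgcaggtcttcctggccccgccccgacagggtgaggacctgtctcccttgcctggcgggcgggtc
Fzd7: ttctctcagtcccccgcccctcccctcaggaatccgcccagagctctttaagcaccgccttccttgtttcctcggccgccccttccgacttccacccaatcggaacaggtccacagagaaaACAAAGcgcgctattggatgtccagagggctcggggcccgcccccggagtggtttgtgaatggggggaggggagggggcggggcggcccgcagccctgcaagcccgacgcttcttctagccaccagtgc
Myoc: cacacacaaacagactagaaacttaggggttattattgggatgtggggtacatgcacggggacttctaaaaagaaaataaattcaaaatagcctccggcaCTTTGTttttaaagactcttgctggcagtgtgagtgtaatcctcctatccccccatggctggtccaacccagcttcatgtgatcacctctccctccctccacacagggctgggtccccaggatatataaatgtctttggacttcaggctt

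ACAAAG was present in the windows of Fzd7 and Myoc and in neither of Cbr2 and Sema3e. Windows were matched for 57 higher and 113 lower genes. ACAAAG, on either strand, lay in 9 of the 57 (15.8%), in 22 of the 113 (19.5%) and in 16.5% of 27025 windows. ACAATG, the other SOX-type core searched, lay in 1 of 57 (1.75%), 6 of 113 (5.31%) and 10.99% of the 27025. Those 27025 windows are of every gene with a sequence, expressed here or not, and so are not the 14455 genes compared. The members all passed the expression filter, so the shares are not of like sets. A match is a description of the letters and not a binding site, and its absence from these windows says nothing of SOX9.

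Outside the classes, genes with ordinary symbols numbered 23 higher (0.297%) and 49 lower (0.633%) of 7741, under the 0.657% and 1.2% of all genes. Fkbp5, a co-chaperone of steroid receptors that glucocorticoids induce, was higher at 14.5 against 7.64 FPKM in replicate 1 and 86.9 against 53.1 in replicate 2, with replicate 2 above replicate 1 in both genotypes. Cib2, a calcium-binding protein, was at 97.1 against 59.3 FPKM in replicate 1 and 175 against 109.6 in replicate 2, and Nptx1, a pentraxin, at 6.13 against 2.21 and 5.67 against 1.69 FPKM. Trim12a, a tripartite-motif protein, and Sorbs2, an adaptor of the actin cytoskeleton, had log2 differences of 1.33 and 1.20 (Trim12a) and of 1.06 and 1.09 (Sorbs2). D0H4S114 was lower at 13.8 against 58.0 FPKM in replicate 1 and 12.8 against 67.8 in replicate 2, with libraries of one genotype close together. The lower genes included Scrg1, first found in scrapie-infected brain, at 0.471 against 2.99 FPKM in replicate 1 and 0.552 against 6.62 in replicate 2; both libraries labelled cKO were under 1 FPKM. Phyhip, which binds phytanoyl-CoA hydroxylase, stood at 59.9 against 126 FPKM in replicate 1 and 61.7 against 128 in replicate 2, with libraries of one genotype almost level across the sexes. Dab2, an endocytic adaptor, was at 19.3 against 33.1 FPKM in replicate 1 and 6.67 against 14.2 in replicate 2, Enc1 at 11.6 against 22.2 and 6.83 against 23.3 FPKM, Itm2a at 13.1 against 25.2 and 13.4 against 38.0 FPKM, and F3, tissue factor, at 11.7 against 21.3 FPKM in replicate 1 and 37.2 against 58.5 in replicate 2. Ndrg2 was at 47.7 against 79.7 FPKM in replicate 1 and 51.9 against 102 in replicate 2, and Myof, a membrane repair protein of the ferlin family, at 27.4 against 46.8 and 6.37 against 12.5 FPKM.

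Further genes with SOX9 peaks of both HFSC lists within 10 kb were mostly lower. Lower genes were also 174 of the 269 that met the rule, with or without a peak. On loci of 1 gene, such peaks were near 16.1% of lower, 10.2% of higher and 13.04% of all genes. Of the genes named next, Thsd1, Col8a2, Efna5, Cobll1, Trim32, Kctd4 and Prrt2 have deposited loci shared with other genes. Peaks counted for these loci cannot be assigned to 1 gene. Fam132a, a secreted C1q-family protein, stood at 60.4 against 176 FPKM in replicate 1 and 126 against 253 in replicate 2, and Adamtsl4, a protein that binds matrix microfibrils, at 75.4 against 174 FPKM in replicate 1 and 50.2 against 89.5 in replicate 2. Thsd1, a membrane protein with a thrombospondin repeat, was at 50.3 against 112 FPKM in replicate 1 and 34.2 against 78.7 in replicate 2, and Col8a2, a network-forming collagen, at 64.1 against 144 FPKM in replicate 1 and 58.7 against 99.4 in replicate 2. For Fam132a replicate 2 was above replicate 1 in both genotypes, and all libraries labelled cKO were below the controls. Efna5, an ephrin ligand, was at 15.5 against 26.0 and 3.75 against 7.40 FPKM, and Sdk2, an adhesion protein of the immunoglobulin family, at 13.5 against 25.2 and 3.76 against 9.14 FPKM; both were lower in replicate 2 than in replicate 1 in either genotype. Mansc1, Itpripl1, Cobll1, Trim32 and Kctd4 had log2 differences between -1.16 and -0.63. Of the higher genes with such peaks, Fam129a was at 14.9 against 5.996 and 8.42 against 4.202 FPKM, Sema5a, a semaphorin, at 11.2 against 5.82 and 3.81 against 1.55 FPKM, and Prrt2 at 2.19 against 1.11 and 5.63 against 2.84 FPKM. No difference between genes with and without a peak was tested.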

How the data were processed

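RNA was sequenced with the Illumina TruSeq RNA kit, per the labels' protocols. The authors deposited FPKM per gene, per the file headers. Bowtie, TopHat, TopHat2, Cufflinks 1.0.3 and build mm9 are named in the submitters' processing notes, without roles. SOX9 peaks were deposited as coordinates only, per the file headers, by a caller not given in the sources used here. FPKM depends on transcript length and library total (sums 555420 to 903766). Read depth is unknown, so expression values carry no counting interval. Genes averaging 1 FPKM or more were compared as log2(FPKM + 1) within each replicate number. The numbers pair libraries of one sex, age and treatment schedule, per the labels, and deviations from group means correlated at 0.812 across 14455 genes. limma 3.58.1 in R 4.3.3 (mean trend, two-sided, adjusted p under 0.05) was fitted with genotype alone and with the replicate block, after a check on simulated data. Other values were computed in Python 3.11.15.

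Named genes were the 15 largest each way by the smaller pair difference, up to 8 each way in the 4 main classes and 5 in others, genes averaging 100 FPKM or more, and genes with a SOX9 peak of both HFSC lists within 10 kb. Others named were chosen after their values were seen. Classes rest on 28 symbol patterns, which can misplace a gene. Some genes are not reported here. Members and lists were chosen with earlier results of these data known. Alternatives were pseudocounts of 0.1 and 5, filters, 2-fold, centring, quantile normalization, each replicate left out, and peak windows of 1 and 50 kb. Current symbols were matched for 92 of 95 higher and 166 of 174 lower genes.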

Additional observations from a re-analysis of the deposited data

Results flagged for a closer look

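Sox9, the targeted gene, differed in opposite directions in the pairs: its log2 difference, labelled cKO minus control, was -0.21 in replicate 1 (male pair) and 0.78 in replicate 2 (female pair). Each pair has 1 library a genotype, and the difference between the pairs was not tested.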

How the results depend on the processing

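Counts moved with the pseudocount, filter and threshold. The rule fixes the sign of the 106 named genes besides Sox9 in both pairs, so that their kept direction is no sign of stability. Sox9, not chosen by the rule, reversed to -0.21 without replicate 2 (0.78 without replicate 1). Higher and lower genes numbered 159 and 293 at a pseudocount of 0.1, 40 and 60 at 5, 63 and 107 at a mean of at least 5 FPKM, 28 and 40 at 2-fold, and 49 and 93 on loci of 1 gene without small RNAs. From 1 pair alone they ranged from 328 to 829 and from 646 to 872. In metabolism, transport, transcription factors and receptors (20, 7, 15 and 20 genes in either direction), the counts were 34, 11 and 30 in the first 3 at 0.1; 9, 3, 3 and 9 at 5; 5, 1, 2 and 5 at 2-fold; 9 transcription factors at a mean of at least 5 FPKM; and 4, 9 and 12 in the last 3 on loci of 1 gene. From 1 pair they ranged over 56 to 116, 30 to 50, 79 to 87 and 46 to 55. Quantile normalization gave 103 and 151, and 227 of these 254 genes were among the 269; removal of a trend on locus span, added after seeing the data, gave 88 and 174. The replicate block, which pairs the libraries by their labels, called 41 genes where genotype alone called 0; it called 33 with a pseudocount of 0.1, 78 with 5, 3 after quantile normalization, and 0 without the filter or without the mean trend, with 1523 and 1197 genes at an unadjusted p under 0.05. Of the named genes 31 passed with the block. Without single libraries the fit by genotype alone called from 2 (without control replicate 2) to 41 genes (without cKO replicate 1), where the lone sample is assumed to vary like the other group; without control replicate 1 it called 4, and without cKO replicate 2 it called 7. The share of lower genes with a peak of both HFSC lists was 20.7% within 1 kb (13.8% of all genes). It was 43.1% within 50 kb (31.9%), and 16.1% within 10 kb on loci of 1 gene (13.04%). That of higher genes was 13.7% within 1 kb and 35.8% within 50 kb. On loci of 1 gene within 1 kb, 8.60% of lower and 6.12% of higher genes lay below the 9.50% of all genes. On loci of 1 gene within 50 kb, 30.1% of lower and 28.6% of higher genes lay near the 28.0% of all genes. With HFSC list 1 alone, lower and higher genes were at 55.7% and 44.2% (34.9%). With HFSC list 2 alone they were at 31.6% and 18.9% (24.2%), and on loci of 1 gene at 18.3% and 14.3% (19.4%). The cause of these moves was not tested. Depth is unknown, and 32 of 95 higher and 67 of 174 lower genes lay under a mean of 5 FPKM, where 1.5-fold is a difference of few FPKM.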

Other observations

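Small RNAs and clone-named loci were 36 of the 269 genes, 14 higher and 22 lower, of 364 compared (3.85% and 6.04%, beside 0.657% and 1.2% of all genes). They are named here after their values were seen. A short gene such as Mir23a, whose locus spans 75 bases, can reach several FPKM from few fragments, since FPKM divides by length. Read depth is unknown, and the part of this limit in these shares was not tested. Snord4a was listed at 0 in both libraries labelled cKO and at 8.47 and 8.02 FPKM in the controls, and Snord72 likewise at 0 and at 4.05 and 10.9. Mir23a stood at 10.8 against 47.3 FPKM in replicate 1 and 7.01 against 18.8 in replicate 2. Mir140, inside Wwp2, was at 3.64 against 17.1 FPKM in replicate 1 and was listed at 0 against 1.34 in replicate 2; Wwp2 and Mir140 share a deposited locus, so their values may share reads. A gene was listed at 0 in at least 1 library for 6 of the higher and 15 of the lower genes, against 177 of 14455.

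Gm11681, a predicted gene, had 4.82 FPKM in replicate 1 and 1.55 in replicate 2 of the labelled cKO and 0 in both controls. It lies on mm9 chromosome 11 at 112654044 to 112660322, near Sox9, which is listed at 112643537 to 112649074. Any link of the Gm11681 values to the targeted gene was not tested. C1s, a serine protease of the complement cascade, was higher at 16.2 against 7.95 FPKM in replicate 1 and 13.8 against 3.26 in replicate 2, and C9, of the membrane attack complex, was lower at 2.05 against 5.09 FPKM in replicate 1 and 2.38 against 5.32 in replicate 2. Guca2a, the guanylin precursor, stood at 12.4 against 5.58 FPKM in replicate 1 and 28.2 against 8.02 in replicate 2. The difference was larger in replicate 2 than in replicate 1 for 59 of the 95 higher and 100 of the 174 lower genes. The same count was not made over all genes, so it does not set these genes apart. Of all genes compared, 829 were 1.5-fold higher and 872 lower in replicate 2 alone, beside 328 and 646 in replicate 1 alone.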
